A study of Mus musculus with 12 samples.

Results

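The sterol transporters Abca1, Abcg1, Abca7, Abcg4 and Scarb1, the LXR-controlled ubiquitin ligase Mylip, the LXR receptors Nr1h2 and Nr1h3 and the receptor co-regulators Ncor1 and Ncoa1 were followed in the aorta. They are 10 of the 25284 genes with a row in the count table. They were chosen by name, with earlier results of these data known, and all passed the filter on low counts. All 12 mice were male ApoE-/- animals of 18 weeks, on a high fat, cholesterol-enriched diet from 10 weeks of age. These mice lack apolipoprotein E, a ligand for the uptake of lipoproteins by the liver, and they develop atherosclerosis on such a diet. For 8 weeks, 6 of them received the α7nAChR agonist AZ6983 at 50 µmol/kg/day and 6 control mice received the cyclodextrin vehicle alone, both from osmotic minipumps under the skin. Stranded total RNA of the thoracic aorta was sequenced after removal of ribosomal RNA. The control mice are called C1 to C6 and the AZ6983 mice A1 to A6.

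Cells cannot break down cholesterol, so a macrophage or smooth muscle cell that has taken up lipoproteins must pass it on to acceptor particles outside. ABCA1 loads cholesterol and phospholipid onto lipid-poor apolipoprotein A-I, ABCG1 passes sterol to formed high density lipoprotein (HDL), and SR-BI, the product of Scarb1, exchanges cholesteryl ester and free cholesterol with HDL in both directions. The LXRs, LXRα (Nr1h3) and LXRβ (Nr1h2), are nuclear receptors that bind oxidised sterols, pair with a retinoid X receptor (RXR) and switch on Abca1, Abcg1 and Mylip, the last of which encodes IDOL, a ligase that marks lipoprotein receptors for breakdown. Without a bound sterol the pair holds co-repressors such as NCOR1, and with one it recruits co-activators such as NCOA1.

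Abca1, Abcg1, Scarb1, Mylip and Ncor1 were higher in AZ6983 mice at an unadjusted p under 0.05, and no member was lower at that p. The mean level of Scarb1 was 1.497 times, that of Abca1 1.44 times and that of Abcg1 1.36 times the control level in the fitted model. The messages of the LXR receptors themselves differed little, with fitted ratios of 1.04 for Nr1h2 and 1.06 for Nr1h3. In edgeR's quasi-likelihood test 0 members were past 10% FDR, as were 0% of the 15857 genes tested. At an unadjusted p under 0.05, 7.38% of all genes tested were higher and 2.81% lower in AZ6983 mice, beside 5 and 0 of the 10 members. The paper had already listed Abca1 and Scarb1 as up-regulated in the same mice. The log2 fold change was above 0 for 9 members, with a median of 0.20, beside 52.4% of all genes tested and a median of 0.01. DESeq2 with its defaults, which called 0.523% of 17592 genes at 10% FDR, called 2 members, Abca1 (adjusted p = 0.0316) and Scarb1 (adjusted p = 0.0811). Both calls were lost when the share of reads on no gene, described further on, was added to the DESeq2 model (log2 fold changes of 0.22 and 0.58, each with an adjusted p of 0.999995). The share of all genes called in that DESeq2 fit was not recorded.

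The DNA just before the start of a few members is given first, since LXR and RXR bind a direct repeat of AGGTCA with 4 bases between the copies, called DR4, and Abca1, Abcg1 and Mylip are LXR targets. RefSeq windows of GRCm38.p6, from 250 bases before to 50 after the start, were at hand for 7 members (9 windows, since some have several starts), namely Abca1, Abca7, Mylip, Nr1h2, Nr1h3, Ncor1 and Ncoa1. The 170 bases before the start are printed 5′ to 3′ on the gene's own strand for 4 of them. Abca1 (chr4:53159896-53160065, minus strand) and Mylip (chr13:45389572-45389741, plus strand) are targets that were higher, Abca7 (chr10:79996324-79996493, plus strand) is a transporter that was not, and Nr1h3 (chr2:91195117-91195286, minus strand) encodes LXRα. Capitals mark matches to DR4 or to the GC box GGGCGG.
Abca1: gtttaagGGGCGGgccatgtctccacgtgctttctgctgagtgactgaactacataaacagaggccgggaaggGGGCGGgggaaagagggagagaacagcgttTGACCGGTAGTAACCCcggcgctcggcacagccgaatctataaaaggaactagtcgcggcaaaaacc
Mylip: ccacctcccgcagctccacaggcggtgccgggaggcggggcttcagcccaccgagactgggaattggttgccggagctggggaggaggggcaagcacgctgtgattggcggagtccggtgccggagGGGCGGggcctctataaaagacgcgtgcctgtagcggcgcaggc
Abca7: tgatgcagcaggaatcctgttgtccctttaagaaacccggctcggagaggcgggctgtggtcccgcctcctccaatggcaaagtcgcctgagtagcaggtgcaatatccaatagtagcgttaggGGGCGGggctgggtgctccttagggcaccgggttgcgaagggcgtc
Nr1h3: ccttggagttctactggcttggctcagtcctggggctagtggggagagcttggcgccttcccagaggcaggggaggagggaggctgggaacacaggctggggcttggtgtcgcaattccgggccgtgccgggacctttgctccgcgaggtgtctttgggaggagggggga

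Searched on both strands with at most 3 of 12 mismatches, DR4 was found in Abca1 alone among the 7 members. It lay at −67 to −52 from the start, read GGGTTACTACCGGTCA on the opposite strand and matched 9 of the 12 compared bases. A match of this quality was present in 21.9% of 32841 RefSeq windows of the same length, and 3.02% held one with at most 2 mismatches. AGGTCA on its own was in none of the member windows and in 16.3% of all, and TCACNCCAC, a sterol regulatory element, was likewise in none and in 1.24% of all. GGGCGG, which does not overlap the DR4 match, was present in Abca1 (2 copies), Abca7 (1), Mylip (1), Ncor1 (2) and Ncoa1 (7), beside 35.7% of all windows. In Nr1h3 and Nr1h2 none of the 4 patterns was found in the windows.

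Abca1, the transporter that starts HDL formation, was the most abundant member (mm10 chromosome 4, 53030787 to 53159895). Its level after normalization by edgeR's TMM method, in CPM (counts scaled to the size of the library), was 256.0 at the lowest, 321 at the median and 417 at the highest in control mice. In AZ6983 mice these values were 386, 462 and 539. The groups met only at their edges: control C6, at 417, lay above A1 (386) and A3 (400), and the other 4 AZ6983 mice were above every control. The means were 322 ± 57.1 and 461 ± 63.0 CPM (SD, n = 6 each), and the log2 fold change was 0.52 (SE 0.124, 95% interval 0.25 to 0.79, unadjusted p = 0.00106 and adjusted p = 0.447 from edgeR). By unadjusted p, Abca1 was number 27 of the 15857 genes.

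Abcg1, which works after ABCA1 in the same route (chromosome 17, 31057675 to 31117988), was at 35.1, 47.7 and 63.0 CPM in control mice (lowest, median, highest) and at 45.4, 65.1 and 90.8 CPM in AZ6983 mice. It was the more scattered of the pair: A1 (45.4) and A5 (49.3) lay within the controls, A3 (59.3) was below control C6, and A2, A4 and A6 were above all controls. Abcg1 had a log2 fold change of 0.45 (SE 0.171, 95% interval 0.08 to 0.82, unadjusted p = 0.0219 and adjusted p = 0.450 from edgeR). Without A4, the highest mouse, it was 0.32 with an unadjusted p of 0.0549 from edgeR, and without C3, the lowest, that p was 0.0535.

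Scarb1, the HDL receptor (chromosome 5, 125277087 to 125341094), was the only member whose groups did not overlap, which held for 0.41% of all genes tested. Its CPM was 20.6, 28.0 and 33.6 in controls (lowest, median, highest) and at 33.9, 37.9 and 58.3 CPM in AZ6983 mice. The gap between C2 at 33.6 and A2 at 33.9 was narrow, and A5, at 58.3, stood well above the next mouse, A4, at 41.2. The log2 fold change was 0.58 (SE 0.151, 95% interval 0.26 to 0.91, unadjusted p = 0.00203 and adjusted p = 0.447 from edgeR). Without A5 it was 0.43 (unadjusted p = 0.00413 and adjusted p = 0.240 from edgeR).

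Abca7 (chromosome 10, 79996494 to 80015572), a relative of Abca1 that moves phospholipid, and Abcg4 (chromosome 9, 44273188 to 44288615), a relative of Abcg1 best known from brain, were near the control level or below it. Abca7 was at 20.5, 24.8 and 33.0 CPM in controls and at 23.0, 26.4 and 30.8 CPM in AZ6983 mice (lowest, median, highest), so that the AZ6983 mice lay inside the range of the controls. Its log2 fold change was 0.02 (SE 0.118, 95% interval −0.23 to 0.28, unadjusted p = 0.858 from edgeR's quasi-likelihood fit). Its sign turned to −0.02 without C4 or C5 and to −0.04 without C1 or A5, always within 1 SE of 0. Abcg4 was the scarcest member, with 43 to 118 counts per mouse. Controls had 1.94, 2.40 and 4.01 CPM of it, and AZ6983 mice 1.73, 2.37 and 3.06 CPM. Its log2 fold change was the only one below 0, at −0.25 (SE 0.228, 95% interval −0.75 to 0.24, unadjusted p = 0.290 from edgeR), and the controls C3 and C6, at 3.93 and 4.01 CPM, stood above all other mice. Without C6 it was −0.12.

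**Figure D1:**
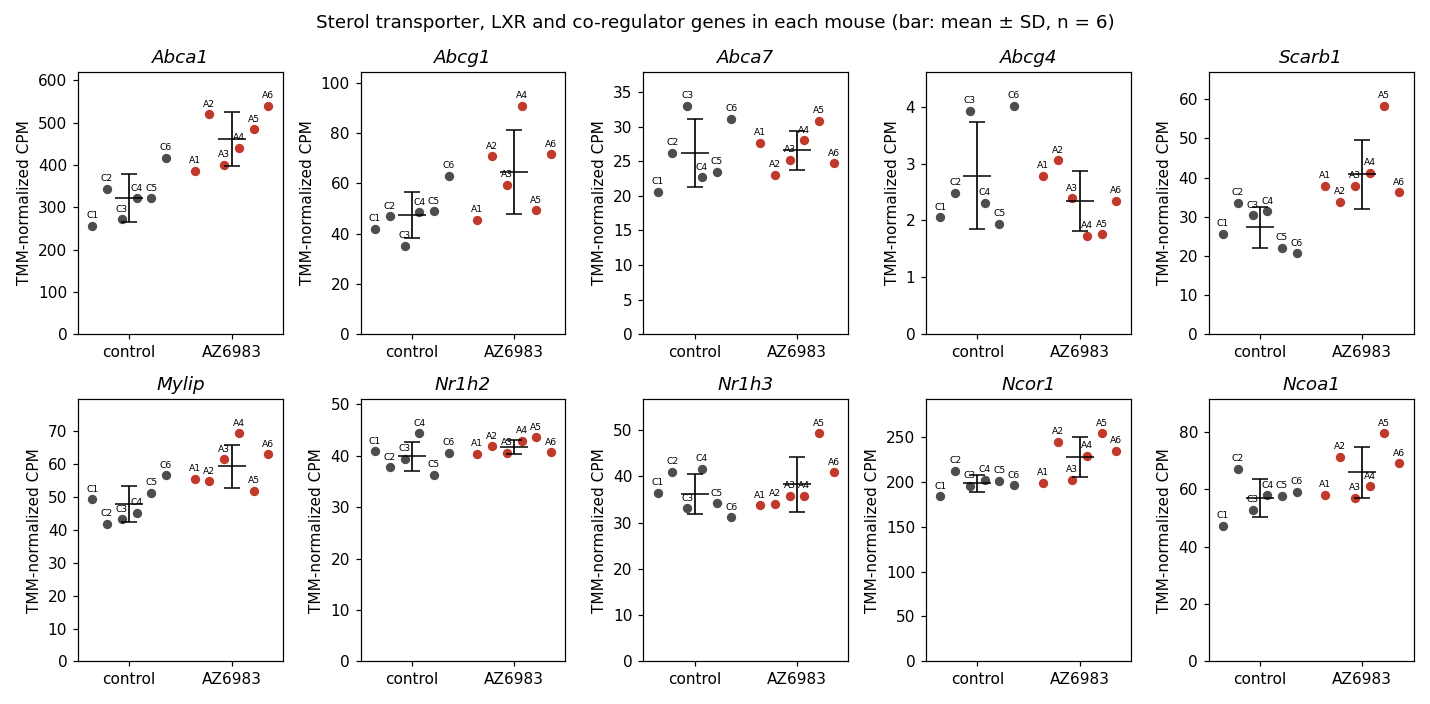
TMM-normalized CPM (y axis, linear, from 0) of the 10 genes in each control mouse (grey, C1 to C6) and AZ6983 mouse (red, A1 to A6), with the mean and SD of each group as bars. All red points of Scarb1 lie above the grey ones, 4 of 6 do so for Abca1 and Ncor1, and the groups lie on top of each other for Nr1h2 and Abca7.

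Mylip (chromosome 13, 45389742 to 45412022) had 41.9, 47.3 and 56.6 CPM in controls and 51.9, 58.5 and 69.4 CPM in AZ6983 mice (lowest, median, highest). A3, A4 and A6 were above every control, and the lowest AZ6983 mouse, A5 at 51.9, was above all controls other than C6. The log2 fold change was 0.31 (SE 0.0886, 95% interval 0.12 to 0.50, unadjusted p = 0.00411 and adjusted p = 0.447 from edgeR), and Mylip varied least between mice of the 4 higher transporter and ligase genes, with a coefficient of variation of 11.6% in controls.

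Nr1h2, which encodes LXRβ and is expressed in most cells (chromosome 7, 44549616 to 44553951), varied little between mice. It was at 36.2, 40.0 and 44.3 CPM in control mice (lowest, median, highest) and at 40.3, 41.2 and 43.6 CPM in AZ6983 mice, with a coefficient of variation of 7.06% and 3.28%. Every AZ6983 mouse fell within the controls. The log2 fold change was 0.06 (SE 0.0532, unadjusted p = 0.256 from edgeR), and the 95% interval of the ratio ran from 0.965 to 1.13. Nr1h3, which encodes LXRα and is typical of macrophages, liver and fat (chromosome 2, 91184061 to 91202834), was at 31.1, 35.3 and 41.6 CPM in controls and at 33.7, 35.8 and 49.3 CPM in AZ6983 mice. Its medians were thus close, and A5 alone, at 49.3, exceeded the controls. The log2 fold change was 0.08 (SE 0.105, unadjusted p = 0.469 from edgeR, 95% interval of the ratio 0.902 to 1.24), and without A5 it was −0.03. The ratio of Mylip, 1.24, had a 95% interval of 1.08 to 1.41, which overlapped those of Nr1h3 and Nr1h2. Whether Mylip differed more than the receptor genes was not tested.

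Of the co-regulators, Ncor1 (chromosome 11, 62316426 to 62458541) was tightly grouped in controls, at 184, 199 and 212 CPM (lowest, median, highest), and wider in AZ6983 mice, at 199, 232 and 254 CPM. A1 and A3 lay within the controls, and A2, A4, A5 and A6 above them. For Ncor1 the log2 fold change was 0.20 (SE 0.0690, 95% interval 0.05 to 0.34, unadjusted p = 0.0143 and adjusted p = 0.450 from edgeR). Ncoa1 (chromosome 12, 4247362 to 4477182) was at 47.2, 57.8 and 67.1 CPM in controls and at 56.9, 64.9 and 79.4 CPM in AZ6983 mice. The control C2 had more than A1, A3 and A4, and the log2 fold change of 0.21 (SE 0.0979, unadjusted p = 0.0506 from edgeR) had a 95% interval that reached −0.00. The co-repressor and the co-activator thus had nearly the same log2 difference.

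Mouse A5 had the highest level of all 12 mice in 4 members under TMM (Scarb1, Nr1h3, Ncor1 and Ncoa1). This library also stood apart in composition, with 30.2% of its counts taken by the leading 10 genes and at most 22.1% in each other library, and a TMM factor of 0.837, against 0.987 to 1.07. Scaled by the library total alone, A5 was highest in 1 member, Scarb1, at 48.7 CPM, whereas its Nr1h3, at 41.2 CPM, fell within the controls. Under that scaling the log2 fold changes of Abca1 and Scarb1 were 0.50 and 0.56, and the sign of the log2 fold change was the same as under TMM for all 10 members. With A4 and A5 both left out, Abca1 was at 0.51 (unadjusted p = 0.00425) and Scarb1 at 0.40 (unadjusted p = 0.0116), while Ncor1 was at 0.14 (unadjusted p = 0.0872, all from edgeR).

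**Figure D2:**
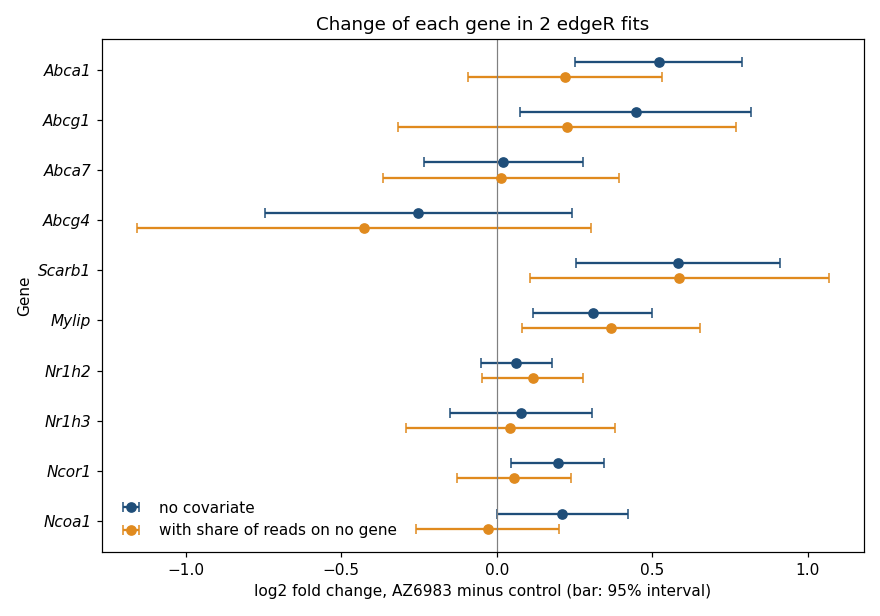
Log2 fold change of each gene (x axis, AZ6983 minus control, 0 meaning no difference) with its 95% interval, in edgeR without a covariate and with the share of reads outside genes as a covariate. For Scarb1 (0.58 and 0.59) and Mylip (0.31 and 0.37) the pair of points lies close together, and for Abca1 (0.52 and 0.22), Ncor1 (0.20 and 0.06) and Ncoa1 (0.21 and −0.03) the covariate moves the point towards 0.

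The libraries also differed in the share of reads placed on no gene, and the members were not alike in how they moved with it. Whether these reads include introns of genes is not known, since the counting's annotation and settings are not given in the sources used here. This share was 8.02% to 12.7% in control mice and 11.2% to 14.9% in AZ6983 mice, and differed between the groups (exact permutation test, two-sided, p = 0.0108). With the share as a covariate, Scarb1 had a log2 fold change of 0.59 (SE 0.220, unadjusted p = 0.0207) and Mylip of 0.37 (SE 0.131, unadjusted p = 0.0164), both from edgeR. In the same fit that of Abca1 was 0.22 (SE 0.143, unadjusted p = 0.149), that of Abcg1 0.23 (SE 0.249, unadjusted p = 0.384), that of Ncor1 0.06 and that of Ncoa1 −0.03. These 2 members at an unadjusted p under 0.05 stand beside 1.87% of all genes tested that were higher at that p in this fit, and the adjusted p was 0.9998 for every member. Of the variance of the share, 50.9% lay between the groups, so the group and the share can be told apart only in part. The interval of every member was wider with the covariate than without it.

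Control C2, at 12.7%, was the only control in the range of the AZ6983 mice. Beside it, A1, A3, A4 and A5 had shares of 11.2% to 12.5%. In these 4 mice Abca1 was 386 to 484 CPM against 343 in C2, Scarb1 was 37.8 to 58.3 against 33.6, and Mylip was 51.9 to 69.4 against 41.9. Among the controls, C2 was the highest for Scarb1, Ncor1 and Ncoa1 and the lowest for Mylip, of which control C6 had 56.6 CPM. For Abcg1, A1 was below C2 (45.4 against 46.9), and for Ncor1 both A1 and A3 were below it (199 and 202 against 212). For Ncoa1, A1, A3 and A4 were below C2 (58.0, 56.9 and 60.9 against 67.1 CPM). With 1 control this is a description without a test. The share also differed by a number at the end of the column names, whose meaning is not given. The 5 columns numbered 3 to 7 were all controls, with shares of 8.02% to 10.4%, and the other 7, C2 (number 12) and the 6 AZ6983 mice, had 11.2% to 14.9%. Other than for C2 this split is that of the groups, and A3 and A5 (numbers 1 and 2) had shares of 12.1% and 12.5%. The group, the share and this number therefore cannot be fully told apart here.

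**Figure D3:**
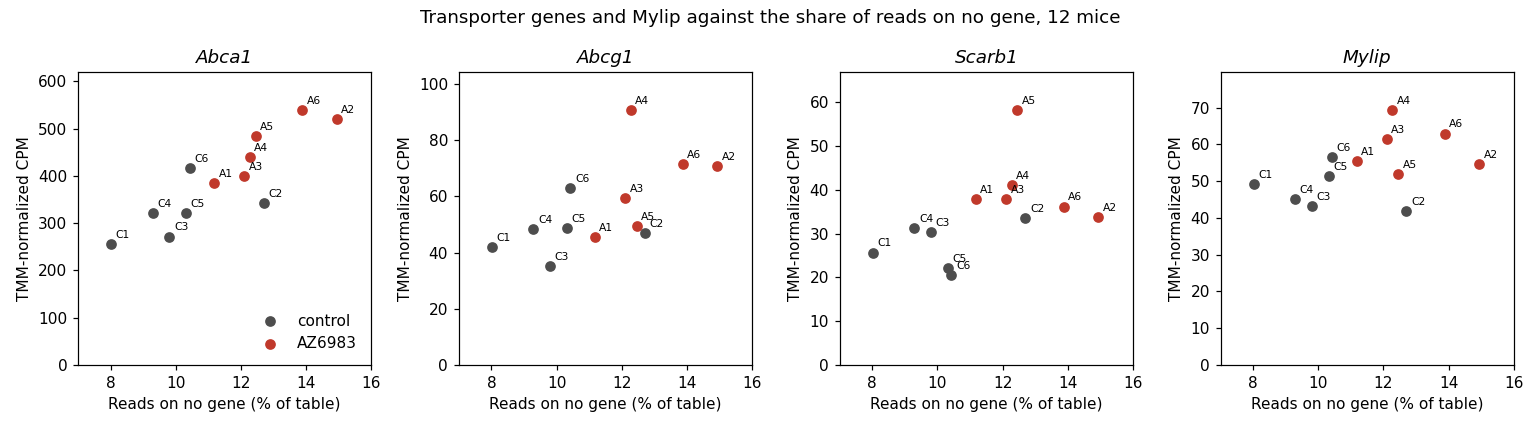
TMM-normalized CPM of Abca1, Abcg1, Scarb1 and Mylip (y axes) against the percentage of the table's reads on no gene (x axis) in the 12 mice, controls in grey and AZ6983 mice in red. C2, at 12.7%, is the grey point among the red ones and lies below all 6 of them in the panels of Abca1, Scarb1 and Mylip, and above A1 alone in that of Abcg1.

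To compare how far pairs of members moved, the log2 ratio of their counts was taken inside each mouse, which does not depend on scaling between libraries. The ratio of Abca1 to Abcg1 was 2.77 ± 0.123 in controls and 2.87 ± 0.345 in AZ6983 mice (n = 6 each, SD), a difference of 0.10 (exact permutation test, two-sided, p = 0.526, 0.955 after Benjamini-Hochberg adjustment over the 3 ratios). The AZ6983 mice were spread out around the controls, from A4 at 2.28 to A5 at 3.30. The ratio of Scarb1 to Abca1 differed by 0.05 (exact permutation p = 0.823, adjusted p = 0.955), and that of Nr1h3 to Nr1h2 by 0.01 (exact permutation p = 0.955). In these 3 ratios no difference between the groups was detected with 6 mice against 6, and no other pair of members was tested.

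Per kilobase of exon (CPM divided by the exon length in GENCODE M21), the members spanned a wide range of levels in control aorta. Abca1 led with 31.0 ± 5.51 and was followed by Ncor1 (15.5 ± 0.723), Mylip (14.8 ± 1.72), Nr1h3 (14.4 ± 1.70), Nr1h2 (11.9 ± 0.839), Ncoa1 (6.64 ± 0.774), Abcg1 (6.49 ± 1.27), Abca7 (3.88 ± 0.733), Scarb1 (3.21 ± 0.621) and Abcg4 (0.535 ± 0.180, all CPM per kb, SD, n = 6). Abca1 did not overlap Ncor1 over the control mice, Nr1h2 did not overlap Ncoa1, and Scarb1 did not overlap Abcg4. The other neighbours in this order overlapped and were not separated beyond their spread. In AZ6983 mice Abca1 was at 44.5 ± 6.08 and Scarb1, at 4.81 ± 1.04, had the higher mean than Abca7, at 3.93 ± 0.415 CPM per kb. Exons of another gene covered 1.35% of the exon length of Nr1h3, and antisense exons covered 0.648% of Ncor1 and 0.793% of Ncoa1. The counting's use of strand is not given in the sources used here, so those shares are uncertain.

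**Figure D4:**
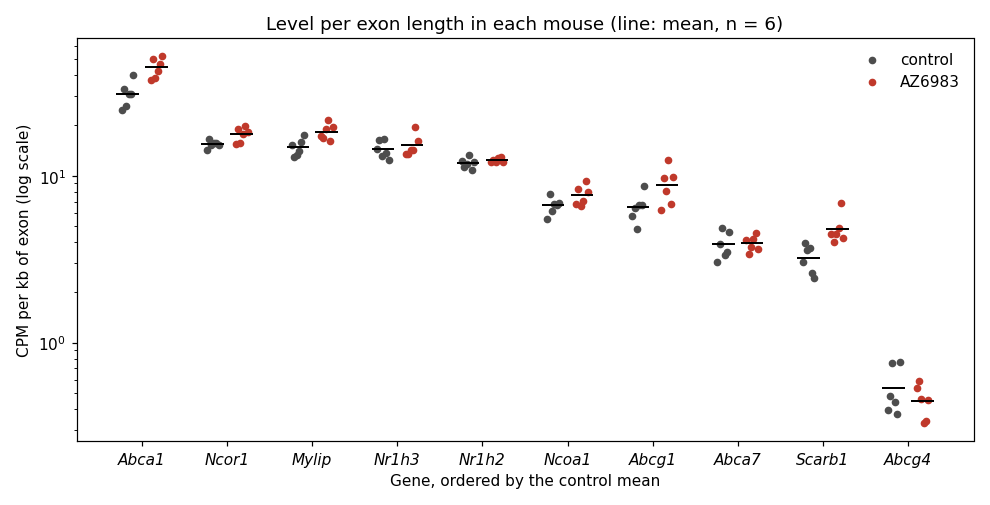
Level per kilobase of exon (CPM per kb, log axis) of the 10 genes in control and AZ6983 mice, each point a mouse, in the order of the control means. Abca1 is at the top, the genes from Ncor1 to Nr1h2 run together between 10.8 and 17.5 in the controls, and Abcg4 is the lowest.

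The cells behind these messages can be looked at only through marker genes. In bulk tissue, fewer cells of a type and less RNA per cell cannot be told apart. Macrophages are a main site of Abca1, Abcg1 and Nr1h3 expression in plaque, and all 10 macrophage markers were tested. The counts of markers below are at an unadjusted p under 0.05, at which 7.38% of all genes tested were higher and 2.81% lower. Their summed level was 877 to 1446 CPM in controls and 743 to 1426 in AZ6983 mice, and 0 of the 10 had an unadjusted p under 0.05 in edgeR. The same count was 0 of 5 for smooth muscle, whose markers were high in every mouse (10135 to 17528 CPM summed), and 0 of 5 for fibroblasts. Of 6 endothelial markers 1 was higher, with sums of 984 to 1170 CPM in controls and 1083 to 1288 in AZ6983 mice.

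Markers of neutrophils were higher in AZ6983 mice for 5 of 5 tested, of 6 listed (11.9 to 45.7 CPM summed in controls, 27.7 to 221 in AZ6983 mice). Those of thymocytes and T cells were higher for 6 of 6 tested (of 8 listed), with A4 at 944 CPM and all other mice at 2.55 to 37.1. Their median sum was 14.5 CPM in controls and 12.5 in AZ6983 mice, so the middle of the AZ6983 group was not higher. These markers were not tested without A4. Brown fat markers summed to 2751 to 4524 CPM in controls, and to 5814 in A5 against 2400 to 3110 in the other AZ6983 mice, with 1 of 6 lower. White fat markers summed to 747 to 1744 CPM in controls (median 1066) and 1243 to 1815 in AZ6983 mice (median 1500.1), with a median log2 fold change of 0.32 and 1 of 5 higher and 1 lower, and of 5 nerve markers 1 was lower. The marker lists were drawn up with earlier results of these data known, so these counts are a description and no independent support. The paper had already listed the neutrophil markers Ltf, Camp and Ngp and the endothelial marker Vwf as up-regulated in these mice. It listed the nerve marker S100b as down-regulated. The part of these cells in the values of Abca1, Scarb1 and the others was not tested.

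The other genes that LXR is known to drive were taken as a list of 18, of which 15 were tested. At an unadjusted p under 0.05, 4 were higher and 1 lower (7.38% and 2.81% of all genes tested), with 12 of 15 above 0 and a median log2 fold change of 0.37, and 0 passed 10% FDR in edgeR. The paper had already listed these 4 higher genes as up-regulated in the same mice, and the list was drawn up with earlier results known. The counts are therefore a description and no independent support. The higher ones act in lipid synthesis and lipoproteins. Srebf1 encodes SREBP-1, a transcription factor of fatty acid synthesis, and had a log2 fold change of 1.02 (SE 0.155). Lpcat3, an enzyme that puts polyunsaturated chains into phospholipids, was at 0.60 (SE 0.0983), the desaturase gene Scd2 at 0.97 (SE 0.195) and the apolipoprotein gene Apoc1 at 1.31 (SE 0.292). With the share of reads outside genes in the fit these were 0.89, 0.48, 0.60 and 0.96, and all 4 stayed at an unadjusted p under 0.05, beside 1.87% of all genes tested. Srebf1, Lpcat3 and Scd2 had groups without overlap, as Scarb1 did. Smpdl3a, a phosphodiesterase gene, was at −0.23 (SE 0.0792, unadjusted p = 0.0119 from edgeR) and at −0.04 with the covariate. Apoc2, Abcg5 and Abcg8 had too few counts to be tested.

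Of 14 genes for the supply, storage and acceptance of sterols, 12 were tested and 0 were at an unadjusted p under 0.05 in edgeR in either direction, with a median log2 fold change of −0.03. Among those with the smallest p were the lysosomal lipase gene Lipa (−0.19, SE 0.106), Lcat, which esterifies cholesterol on HDL (0.31, SE 0.193), and the cholesteryl ester hydrolase gene Nceh1 (−0.28, SE 0.180). The 3 tested genes of the 5 that make or clear oxysterols, the ligands of LXR, likewise had none at that p. Ch25h, the cholesterol 25-hydroxylase gene, was at −0.41 (SE 0.220, unadjusted p = 0.0836 from edgeR), with group means of 1.40 ± 0.296 and 1.05 ± 0.301 CPM (n = 6 each, SD), while Cyp7b1 was at −0.13 and Cyp27a1 at 0.01.

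Among 17 RXR genes and further co-regulators, all tested, 6 were higher and 0 lower at an unadjusted p under 0.05 (7.38% and 2.81% of all genes tested), with a median of 0.12, and 0 passed 10% FDR in edgeR. Among them were the acetyltransferases Ep300 (0.37, SE 0.139) and Crebbp (0.37, SE 0.158), Ncoa6 (0.36, SE 0.152), Nrip1 (0.17, SE 0.0669) and the receptor Rxrg (0.33, SE 0.143). With the share of reads outside genes as covariate, 0 of the 17 were at that p, where 1.87% of all genes tested were higher, and the median was 0.00. In that fit Ep300 was at 0.02, Crebbp at −0.10 and Ncoa6 at −0.01, whereas Rxrg was at 0.31 with a wider SE of 0.210 and Nrip1 at 0.12 (SE 0.0946). Rxra, the abundant partner of LXR, was at 79.8 ± 5.65 and 79.7 ± 4.49 CPM in the control and AZ6983 groups (n = 6 each, SD), and its log2 fold change was −0.00 (SE 0.0582).

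The genes whose pattern over the 12 mice was most like that of 3 members were found by the root mean square distance between standardised log2 CPM, where 0 is identity and 1.41 no relation, among 12576 genes. For Abca1 they were Sap130 (0.310), Raver1 (0.326) and Gigyf1 (0.335), and for Abcg1 Akna (0.407), Cep192 (0.409) and Tnfaip3 (0.415). For Scarb1 they were Jam2 (0.352), Slc12a7 (0.411) and Acsm3 (0.435). Within the 10 members, Ncor1 was nearest to Abca1 (0.583) and to Scarb1 (0.775), and Mylip to Abcg1 (0.584). The distance between Abca1 and Abcg1 was 0.681, and Scarb1 was farther from both, at 0.997 from Abca1 and 1.27 from Abcg1. All these distances include the difference between the groups, and the mice share their library depth and composition across genes.

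The libraries held 23810036 to 35864666 counts on genes, and no pair of them was a copy of another. Apoe, deleted in all mice, kept 117 to 311 counts per mouse (log2 fold change 0.25, SE 0.198, adjusted p = 0.649 from edgeR). Chrna7, which encodes the receptor AZ6983 acts on, had 19 to 114 counts per mouse, with a log2 fold change of −0.62 (SE 0.417, adjusted p = 0.591 from edgeR).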

How the data were processed

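The authors prepared stranded TruSeq total RNA libraries from the thoracic aorta after removal of ribosomal RNA, sequenced them on a NextSeq500 and deposited raw counts per gene symbol for 12 mice, without normalization. The submitters' processing notes name CASAVA 1.8.2, STAR 2.5.2b, HTSeq 0.6.1p1 and mm10. The annotation and the strand setting of the counting are not given in the sources used here. Counts on genes were 23810036 to 35864666 per mouse. The 3 further rows hold reads on no gene, reads that several genes could claim and reads aligned to several places (the last 18.1% to 23.2% of the table). They entered neither the library sizes nor, as genes, the tests, and were used for the share of reads on no gene. Unspliced RNA contributes to the counts, since no poly(A) selection was made.

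Groups came from the labels. The column of A1 matched 3 of the 4 digits of its mouse number, and 11 columns matched in full. No batch, litter or pairing is given, and the columns end in a number, of unstated meaning, that nearly separates the groups. Where nothing says how mice were processed, p-values measure only the spread between these mice.

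All genes were fitted with edgeR 4.0.16 in R 4.3.3 (TMM, filterByExpr, quasi-likelihood test, no covariate), which kept 15857 genes, with Benjamini-Hochberg adjustment over all of them and a threshold of 10% FDR. The SE of a log2 fold change is its size over the square root of F. Log2 CPM used a prior count of 2. Ratios of members used 0.5 added counts and exact permutation tests over 924 assignments of mice, two-sided, with a smallest p of 0.00216. The group fits of edgeR, limma-voom and DESeq2 without a covariate were tested on simulated data, and the other steps were not.

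Alternatives were DESeq2 1.42.0 with its defaults on every gene, limma-voom (limma 3.58.1), size factors of DESeq2, no filter, 5% FDR, 5 added counts, the share of reads outside genes as covariate and each mouse left out in turn. Fits without A4 and A5, by library totals alone, with DESeq2 and the covariate, and with DESeq2 and each mouse left out were chosen after seeing the data. The members, the lists of pathway and marker genes and these tests were chosen with earlier results of these data known. All members are named, with the 4 smallest p of each pathway list and all at an unadjusted p under 0.05, and the 3 genes nearest in pattern to Abca1, Abcg1 and Scarb1 at a mean of at least 1 log2 CPM. Some genes that this rule names are not reported here. Gene positions and exon lengths are from GENCODE M21 (GRCm38, which is mm10), matched by symbol, and promoters from RefSeq.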

Additional observations from a re-analysis of the deposited data

Results flagged for a closer look

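In 36 groups of 6 mice (20 of members, 6 of ratios and 10 of measures of the libraries), 3 held a mouse far from its fellows by Dixon's test, where chance gives 1.8. Scarb1 was at 5.87 log2 CPM in A5 and at 5.09 to 5.37 in the other AZ6983 mice. The TMM factor of A5 was 0.837, with the other AZ6983 mice at 0.994 to 1.07, and that of C6 was 1.05, with the other controls at 0.987 to 1.003. The level of Scarb1 in A5 by library total, and the values without A5, are given with Scarb1 above. Fits without C6 and by library totals alone are given with the members and with the ranges below.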

How the results depend on the processing

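The count of members past 10% FDR was 0 in edgeR with all mice, 0 with each mouse left out, 0 in limma-voom, 2 in DESeq2, 0 in DESeq2 with the share of reads outside genes as covariate and 1 in DESeq2 without A4 and A5 (Abca1, adjusted p = 0.0504, with Scarb1 at 0.175). With each mouse left out, DESeq2 called Abca1 in 8 of 12 fits (adjusted p from 0.000458 without C6 to 0.191 without C1) and Scarb1 in 6 of 12 (0.0264 without C2 to 0.403 without C1). It called Mylip in 3 of these fits, Abcg1 in 1 and Ncor1 in 1. The share of all genes called in these further DESeq2 fits was not recorded, so the calls cannot be set beside it. An adjusted p also moves with the other genes of a fit. For Abca1 the unadjusted DESeq2 p was 0.000230 without C1 (adjusted p = 0.191) and 0.000329 without A2 (adjusted p = 0.0725). The count of members at an unadjusted p under 0.05 was 4 to 6 with each mouse left out and 2 with the covariate, in edgeR and in DESeq2.

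The 210 alternative values of the members' log2 fold changes counted here leave out DESeq2 with each mouse left out. Of these 210, 196 had the same direction and the same side of the threshold, 3 were past the threshold and 11 had the other sign. The latter were Abca7 without C1, C4, C5 or A5 (−0.0398, −0.0173, −0.0228 and −0.0430) and without A4 and A5 (−0.0707 in edgeR and −0.0677 in DESeq2), Nr1h3 without A5 (−0.0274) and without A4 and A5 (−0.0206 and −0.0169), and Ncoa1 with the covariate (−0.0295 and −0.0330). The cause was not tested. With each mouse left out, the log2 fold change was 0.46 to 0.61 for Abca1, 0.32 to 0.54 for Abcg1, 0.43 to 0.63 for Scarb1, 0.26 to 0.36 for Mylip, 0.14 to 0.23 for Ncor1, 0.13 to 0.25 for Ncoa1, 0.02 to 0.10 for Nr1h2, −0.0274 to 0.12 for Nr1h3, −0.0430 to 0.0867 for Abca7 and −0.36 to −0.12 for Abcg4.

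The differences in ratio ranged from 0.01 to 0.22 for Abca1 to Abcg1 (the highest without A4, exact permutation p = 0.0628), from −0.10 to 0.14 for Scarb1 to Abca1 and from −0.0547 to 0.0605 for Nr1h3 to Nr1h2 with each mouse left out, and the last 2 were −0.0838 and −0.0391 without A4 and A5. No paired analysis was possible because the labels give no shared replicate numbers. Depth limits Abcg4 most, at 43 to 118 counts per mouse.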
